A study of Mus musculus with 9 samples.

Results

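The 34 genes described here mark B cells and the lymphoid follicles of the gut wall, and were taken as a list of symbols. Each symbol was matched through its Entrez Gene number to 1 row of the deposited table, so all 34 of 34 were found among the 24011 genes with a symbol. Total RNA came from the large intestine of C57BL/6 mice that carried rtTA, the activator that needs doxycycline, together with a short hairpin RNA. The hairpin was DHX9-1271 (3 arrays) or DHX9-837 (3 arrays), both directed against the helicase gene Dhx9, or FLuc.1309 as the control (3 arrays), directed against firefly luciferase, which mice lack. Mice of all 3 groups, controls included, were 4 weeks old when doxycycline at 1 mg/ml with 5% sucrose was put in their drinking water, and they received it for 14 days. Which promoter drives rtTA, and in which cells it acts, the labels leave unstated. Nor do they say whether replicates were separate animals, and p-values therefore cover the spread between samples alone, which may be technical. Every value is a log2 expression level, so that a difference of 1 is a doubling of signal, and levels of different genes on the array are not set against each other.

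B cells recognise antigen through surface immunoglobulin coupled to the CD79A and CD79B signalling chains, and their identity is kept by transcription factors such as PAX5 and EBF1. In the colon they gather in isolated lymphoid follicles and colonic patches. There the chemokine CXCL13, made by stromal cells under lymphotoxin signalling, draws in B cells that bear its receptor CXCR5. Naive lymphocytes reach such follicles through specialised venules whose adhesion molecules they bind.

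To show the DNA ahead of genes that did and did not change, the 250 bases before the RefSeq start (GRCm38.p6) are printed for some members. Cd22 and Glycam1 are those whose pooled calls held in every alternative that tested them. Blnk is the member that fell, and Spib and Madcam1 hold matches to 2 motifs each. Capitals mark letters that match a searched motif on either strand: CCCNNGGG (EBF1), ATGCAAAT (the octamer bound by Oct factors), GAGGAAGT (PU.1 and Spi-B) and the kappaB consensus.
Cd22 (chr7:30879029-30879278, minus strand): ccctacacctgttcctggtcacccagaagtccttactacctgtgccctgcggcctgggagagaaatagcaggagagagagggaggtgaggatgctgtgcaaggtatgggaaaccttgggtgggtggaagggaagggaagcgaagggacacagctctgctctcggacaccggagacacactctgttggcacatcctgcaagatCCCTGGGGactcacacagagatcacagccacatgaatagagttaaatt
Glycam1 (chr15:103565082-103565331, minus strand): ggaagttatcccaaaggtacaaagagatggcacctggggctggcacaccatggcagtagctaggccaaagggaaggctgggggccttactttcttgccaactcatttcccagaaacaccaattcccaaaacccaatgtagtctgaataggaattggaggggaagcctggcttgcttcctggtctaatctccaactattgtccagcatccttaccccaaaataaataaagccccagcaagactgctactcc
Blnk (chr19:40994222-40994471, minus strand): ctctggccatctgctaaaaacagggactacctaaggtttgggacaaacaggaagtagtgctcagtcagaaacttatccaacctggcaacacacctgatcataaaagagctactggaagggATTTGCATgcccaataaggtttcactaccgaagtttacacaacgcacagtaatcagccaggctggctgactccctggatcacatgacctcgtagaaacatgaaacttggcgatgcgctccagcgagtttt
Spib (chr7:44532072-44532321, minus strand): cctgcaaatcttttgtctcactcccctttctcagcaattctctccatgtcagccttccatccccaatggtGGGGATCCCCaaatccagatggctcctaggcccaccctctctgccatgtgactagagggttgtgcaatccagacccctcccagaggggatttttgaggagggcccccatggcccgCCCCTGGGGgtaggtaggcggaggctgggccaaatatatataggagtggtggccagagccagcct
Madcam1 (chr10:79664309-79664558, plus strand): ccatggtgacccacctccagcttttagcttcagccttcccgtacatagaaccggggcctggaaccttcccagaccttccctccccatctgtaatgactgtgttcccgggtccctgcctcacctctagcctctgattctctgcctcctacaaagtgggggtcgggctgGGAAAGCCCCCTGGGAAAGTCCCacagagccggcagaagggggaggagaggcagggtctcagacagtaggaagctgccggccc

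RefSeq windows were found for 27 of the 34 genes, 31 windows in all, and not for Cd79b, Blk, Ms4a1, Cd40, Cd83, Cxcr5 and Ccr7. The EBF1 motif was matched in 4 of 31 windows (12.9%), against 11.8% of all 32851. Those windows belong to Cd22 (from base -48, counted back from the start), Bank1, Spib and Madcam1. The octamer was matched in 2 of 31 windows (6.45%), against 1.6% of all 32851, at Blnk (base -130) and Vpreb3. The PU.1 and Spi-B motif was matched in 1 of 31 windows (3.23%), against 2.44% of all 32851, at Cd37. The kappaB consensus was matched in 4 of 31 windows (12.9%), against 3.9% of all 32851, at Ltb, Ccl20, Spib and Madcam1. In Madcam1 a run of capitals spans an EBF1 match (bases -76 to -69) that overlaps 2 kappaB matches (-83 to -74 and -70 to -61), whereas in Spib the kappaB match (-180) lay apart from 2 EBF1 matches that overlap each other (-65 and -64). The Glycam1 window held none of the 4. Of the genes with a kappaB match, Spib was called and the other 3 were not. These matches are letters only and describe no binding.

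Dhx9 itself had log2 levels of 8.27, 8.22 and 8.18 with DHX9-1271 and 8.19, 8.22 and 8.20 with DHX9-837, against 9.21, 9.18 and 9.32 in controls, a fall to 0.492 of the control signal over both hairpins (log2 fold -1.02, SE 0.044, adjusted p = 1.28e-05), with every hairpin array below every control array. Across genes, 2 arrays of the same group had a Pearson correlation of 0.979 to 0.995 and 2 of different groups one of 0.959 to 0.988. Markers of the large intestine were bright in every array: Car1 lay between 13.03 and 13.15 and Muc2 between 12.57 and 12.83, while the posterior gene Hoxd13 lay between 4.82 and 5.39 and did not pass the filter on low levels. Small intestine genes varied widely between arrays, and Sis ran from 4.60 to 10.46. The mean of 8 such genes was 7.51, 6.53 and 7.39 with DHX9-1271 and 8.47, 7.16 and 9.12 with DHX9-837, against 7.02, 8.57 and 8.01 in controls. The groups overlapped in that mean, and its part in the results below was not tested.

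With Dhx9 reduced by both hairpins together, 12 of the 34 B cell and follicle genes rose, 1 fell and 21 were not called (limma, adjusted p under 0.05). That is 35.3% higher and 2.94% lower, against 8.13% higher and 5.33% lower of the 16808 genes tested. Glycam1, Cd180, Ms4a1, Cd22, Cd79b, Pax5, Spib, Cxcr5, Ebf1, Bach2, Gpr183 and Cd40 rose, with log2 folds from 0.22 (Cd40) to 0.85 (Glycam1), and Blnk fell. The median log2 fold of the 34 was 0.33, beside 0.0011 over all genes tested. In 13 of the 34 all 6 hairpin arrays lay above all 3 control arrays, against 10.7% of genes tested, and in 1 all lay below, against 6.73%. In whole tissue, a change in the number of cells of a type and a change in RNA per cell cannot be told apart. The count of rises fell to 5 without control replicate 1, to 6 without control replicate 3, DHX9-1271 replicate 3 or DHX9-837 replicate 1, and to 7 without DHX9-837 replicate 3. Over all genes tested, the share called higher fell in those fits too, from 8.13% to between 4.65% and 6.91%. All 34 passed the filter on low levels (a mean log2 level of at least 5.28 over the 9 arrays), and in controls alone the means of all 34 lay above it too.

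**Figure D1:**
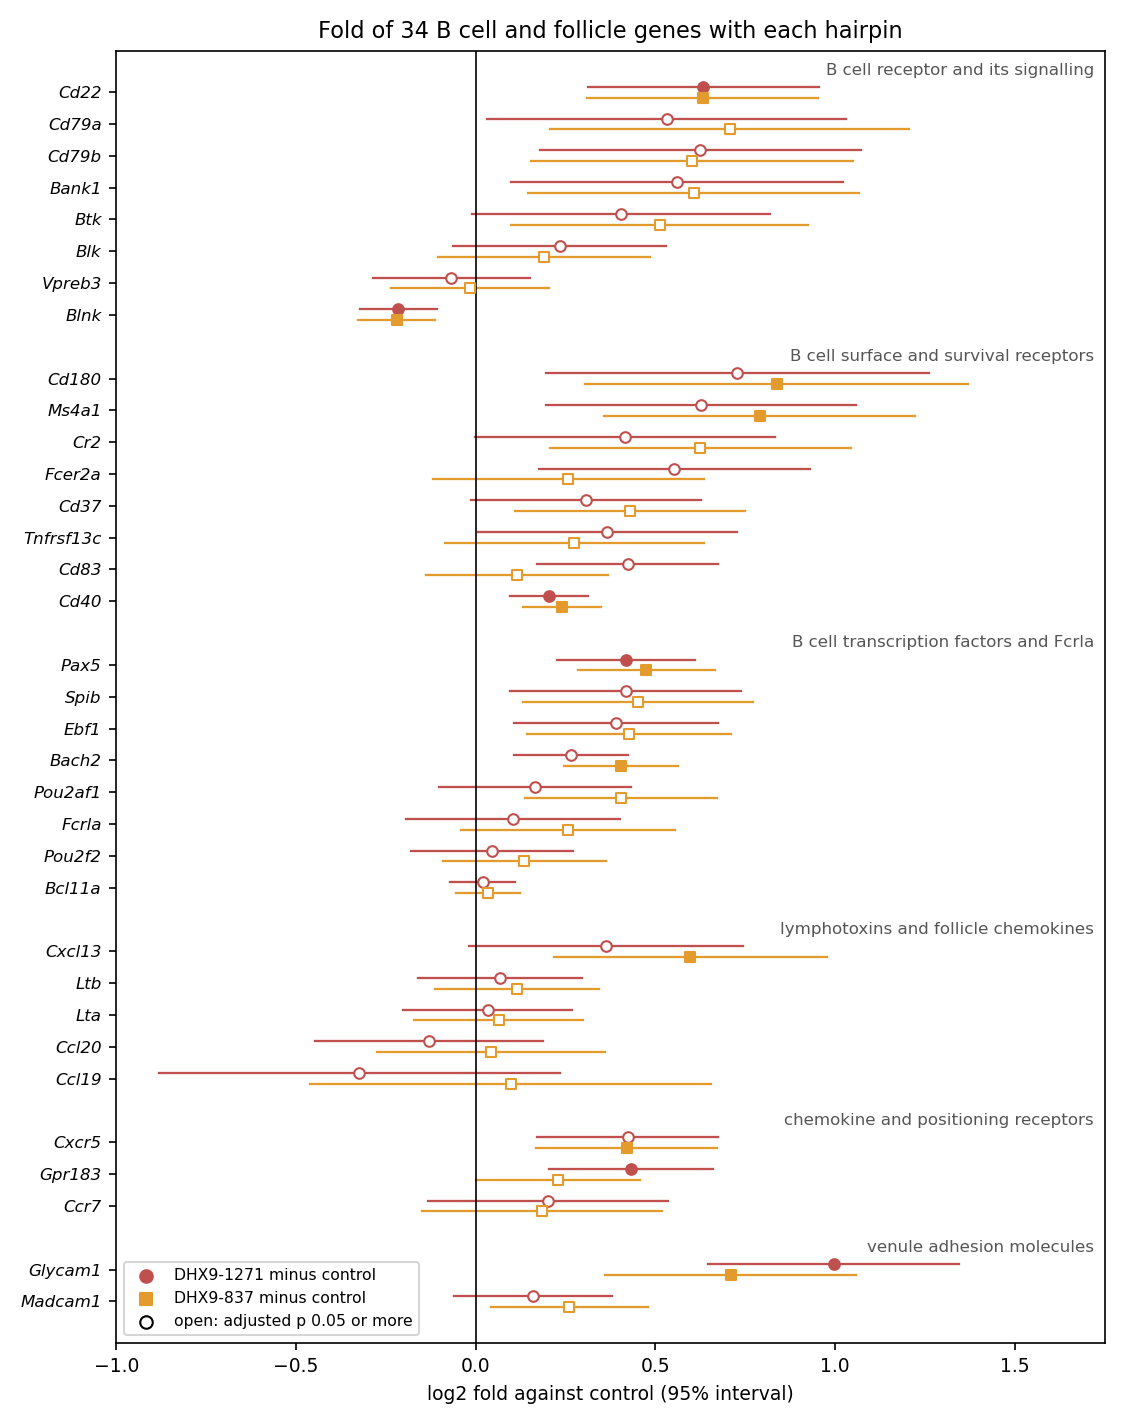
Log2 fold of each of the 34 genes (rows, grouped by role) with DHX9-1271 (circles) and DHX9-837 (squares), each minus the same 3 control arrays, with 95% intervals; filled symbols passed an adjusted p under 0.05 and open ones did not. Most symbols lie right of 0, Blnk lies left of it with both hairpins at -0.21 and -0.22, and Glycam1 lies farthest right with DHX9-1271 at 1.00.

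Among the 8 genes of the B cell receptor and its signalling, Cd22 and Cd79b rose, Blnk fell and 5 were not called with both hairpins. That is 25% higher and 12.5% lower, against 8.13% and 5.33% of all genes tested. Cd22 encodes an inhibitory co-receptor that binds sialic acid and raises the threshold of B cell activation. It had log2 levels of 7.56, 8.07 and 7.69 in the DHX9-1271 arrays, 7.91, 7.51 and 7.90 in the DHX9-837 arrays and 7.11, 7.20 and 7.12 in the control arrays. All 6 hairpin arrays lay above the 3 control arrays, which sat within a narrow band (7.78 ± 0.26 with DHX9-1271, 7.77 ± 0.23 with DHX9-837 and 7.14 ± 0.047 in controls; SD, n = 3 arrays each). Its rise was 1.55-fold (log2 fold 0.63, SE 0.12, adjusted p = 0.0112). Cd79b, the beta signalling chain of the receptor, had 7.70, 8.40 and 7.87 with DHX9-1271 and 8.21, 7.69 and 8.01 with DHX9-837, against 7.14, 7.56 and 7.39 in controls. The hairpin arrays again lay above all controls, although the lowest of each hairpin came close to the highest control (log2 fold 0.61, SE 0.17, adjusted p = 0.0466). That call ended without any single control array, without DHX9-1271 replicate 2 or 3 and without DHX9-837 replicate 1 or 3 (adjusted p 0.0328 to 0.168 over its 21 alternatives).

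Cd79a, the alpha chain that pairs with CD79B, had 8.20, 9.02 and 8.64 with DHX9-1271 and 9.03, 8.39 and 8.97 with DHX9-837, against 7.94, 8.22 and 8.11 in controls. DHX9-1271 replicate 1 lay just under the highest control while the other hairpin arrays lay above all of them, and the gene did not pass (log2 fold 0.62, SE 0.19, adjusted p = 0.0651); it did pass without DHX9-1271 replicate 1 or without DHX9-837 replicate 2. Bank1, a scaffold protein of B cell signalling, had all hairpin arrays above all controls but was not called (log2 fold 0.58, SE 0.18, adjusted p = 0.0611). The kinase gene Btk stood at a log2 fold of 0.46 (adjusted p = 0.0909) and the Src-family kinase gene Blk at 0.21 (adjusted p = 0.254), with overlapping arrays in both. Without DHX9-1271 replicate 2 Bank1 was called, and without control replicate 2 Btk was. Vpreb3, which acts at the pre-B stage in bone marrow, was near the filter level and stood at -0.042 (95% interval -0.23 to 0.15, adjusted p = 0.779).

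Blnk, an adaptor that links the receptor's kinases to downstream enzymes in B cells and is also used by macrophages, went the other way. Its log2 levels were 9.65, 9.72 and 9.70 in the DHX9-1271 arrays, 9.70, 9.68 and 9.67 in the DHX9-837 arrays and 9.92, 9.84 and 9.95 in the control arrays. Every hairpin array lay below every control array and the arrays of each hairpin were within 0.1 of each other. The fall was small in size, by 0.22 on the log2 scale (log2 fold -0.22, SE 0.041, adjusted p = 0.00965), and the adjusted p ran from 0.00296 to 0.0374 over its 21 alternatives, with the call lost only under a limit of 1.5-fold.

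Of 8 surface and survival receptors of B cells, Ms4a1, Cd180 and Cd40 rose, 0 fell and 5 were not called. That is 37.5% higher, against 8.13% higher and 5.33% lower of all genes tested. All 8 log2 folds were above 0, beside a median of 0.0011 over all genes tested. Ms4a1 encodes CD20, a membrane protein of mature B cells. It had 7.43, 8.13 and 7.58 in the DHX9-1271 arrays, 7.98, 7.53 and 8.11 in the DHX9-837 arrays and 7.14, 7.05 and 7.06 in the control arrays, and no hairpin array came down to the control range. The rise was 1.63-fold (log2 fold 0.71, SE 0.16, adjusted p = 0.024), and the call ended without any single control array or DHX9-837 replicate 1 (adjusted p 0.0152 to 0.0708 over 21 alternatives). Cd180, a Toll-like receptor relative of B cells, had 6.85, 7.71 and 7.11 with DHX9-1271 and 7.48, 7.01 and 7.51 with DHX9-837, against 6.29, 6.37 and 6.82 in controls. Control replicate 3 stood above the other controls and close to DHX9-1271 replicate 1, so the groups were only just apart (log2 fold 0.78, SE 0.20, adjusted p = 0.037). That call ended without control replicate 1 or 2, DHX9-1271 replicate 3, or DHX9-837 replicate 1 or 3. Cd40, the receptor through which T cells help B cells, had 6.41, 6.49 and 6.51 with DHX9-1271 and 6.51, 6.47 and 6.52 with DHX9-837, against 6.31, 6.22 and 6.26 in controls. Its arrays kept close together within each group, and the small rise passed in all 9 fits that left out an array (log2 fold 0.22, SE 0.041, adjusted p = 0.00954).

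Cr2, the complement receptor CD21 of B cells and follicular dendritic cells, had 6.18, 6.76 and 6.55 in the DHX9-1271 arrays, 6.81, 6.33 and 6.97 in the DHX9-837 arrays and 5.99, 6.02 and 6.23 in the control arrays. DHX9-1271 replicate 1 lay inside the control range and the other hairpin arrays above it, and the gene was not called (log2 fold 0.52, SE 0.16, adjusted p = 0.0645), though it was without DHX9-1271 replicate 1 or without DHX9-837 replicate 2. The 4 remaining receptors were not called either. The low-affinity IgE receptor gene Fcer2a stood at a log2 fold of 0.41 (adjusted p = 0.0998), the tetraspanin gene Cd37 at 0.37 (adjusted p = 0.082, called without DHX9-837 replicate 2) and the BAFF receptor gene Tnfrsf13c at 0.32 (adjusted p = 0.163). Cd83, an activation marker of B and dendritic cells, stood at 0.27 (adjusted p = 0.103). In these 4 at least 1 hairpin array lay within the control range.

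Transcription factor genes of B cells, with Fcrla beside them, gave 4 rises, 0 falls and 4 not called of 8. That is 50% higher, against 8.13% higher and 5.33% lower of all genes tested. All 8 log2 folds were above 0, beside a median of 0.0011 over all genes tested. Pax5, which commits cells to the B lineage, had 6.22, 6.45 and 6.31 in the DHX9-1271 arrays, 6.41, 6.22 and 6.51 in the DHX9-837 arrays and 5.86, 5.94 and 5.92 in the control arrays. The lowest hairpin array stood clear of the highest control, and the rise was 1.36-fold (log2 fold 0.45, SE 0.073, adjusted p = 0.00554). Bach2, which holds back plasma cell differentiation and is also used by T cells, had 6.03, 6.03 and 6.03 with DHX9-1271 and 6.20, 6.09 and 6.22 with DHX9-837, against 5.78, 5.88 and 5.62 in controls. Its DHX9-1271 values were nearly identical, 2 of them the same to every deposited digit, and all lay between the DHX9-837 and the control values (log2 fold 0.33, SE 0.061, adjusted p = 0.00869). Both calls held in each fit that left out an array.

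Ebf1, an early B lineage factor that stromal cells and adipocytes also express, had 7.72, 8.11 and 7.78 in the DHX9-1271 arrays, 7.95, 7.78 and 7.98 in the DHX9-837 arrays and 7.27, 7.65 and 7.52 in the control arrays. Spib, an Ets factor of B cells, plasmacytoid dendritic cells and M cells, had 6.70, 7.08 and 6.65 with DHX9-1271 and 7.06, 6.57 and 6.91 with DHX9-837, against 6.31, 6.48 and 6.39 in controls. In both genes the hairpin arrays lay above all controls, by a small margin for DHX9-1271 replicate 1 in Ebf1 and for DHX9-837 replicate 2 in Spib. Both passed, Ebf1 (log2 fold 0.41, SE 0.11, adjusted p = 0.04) and Spib (log2 fold 0.43, SE 0.12, adjusted p = 0.0485). The Ebf1 call ended without control replicate 1 or 3, DHX9-1271 replicate 2 or 3, or DHX9-837 replicate 1 or 3, and that of Spib without any array except DHX9-837 replicate 2. The octamer co-activator gene Pou2af1 (log2 fold 0.28, adjusted p = 0.103), the Oct-2 gene Pou2f2 (0.09, adjusted p = 0.536) and Fcrla (0.18, adjusted p = 0.33), which encodes an Fc receptor-like protein held inside B cells, were not called. Bcl11a, needed for early B cell development, stayed between 6.82 and 6.89 over the 9 arrays, with a log2 fold of 0.027 (95% interval -0.051 to 0.10, adjusted p = 0.653).

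None of the 5 lymphotoxin and chemokine genes passed with both hairpins together (0 called by limma, 1 at an unadjusted p under 0.05), and their median log2 fold was 0.049. Of all genes tested, 8.13% were called higher and 5.33% lower. Cxcl13, the chemokine that organises B cell follicles, had 9.20, 9.75 and 9.47 in the DHX9-1271 arrays, 9.94, 9.54 and 9.65 in the DHX9-837 arrays and 9.32, 8.85 and 9.16 in the control arrays. The DHX9-837 arrays lay above all controls and DHX9-1271 replicate 1 lay within the control range (log2 fold 0.48, SE 0.15, adjusted p = 0.0615); without DHX9-1271 replicate 1 the gene was called. Lta (log2 fold 0.049, 95% interval -0.15 to 0.25) and Ltb (0.091, 95% interval -0.11 to 0.29) encode the lymphotoxin subunits, which are needed to build follicles, and their arrays overlapped between groups. Ccl20, which the epithelium over follicles makes to draw in CCR6-bearing cells, stood at -0.044 (95% interval -0.32 to 0.23). Ccl19, a ligand of CCR7, stood at -0.11 (95% interval -0.60 to 0.37); its mean over the 9 arrays only just passed the filter, and DHX9-1271 replicate 1 at 4.42 was far under it. All 4 intervals include 0 and do not exclude changes of the size seen in some other members.

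Of the 3 receptors that place B cells within follicles, Cxcr5 and Gpr183 rose and Ccr7 was not called. That is 66.7% higher of only 3 genes, against 8.13% of all genes tested. Cxcr5, the receptor for CXCL13, had 6.85, 7.09 and 6.97 in the DHX9-1271 arrays, 7.05, 6.86 and 7.00 in the DHX9-837 arrays and 6.58, 6.75 and 6.31 in the control arrays. All hairpin arrays were above all controls, among which replicate 3 was the lowest (log2 fold 0.42, SE 0.096, adjusted p = 0.0222), and the call ended without control replicate 1 or 3 or DHX9-1271 replicate 3. Gpr183, the oxysterol receptor EBI2 that guides B cells to the follicle's edge, had 6.93, 7.37 and 7.15 with DHX9-1271 and 7.00, 6.91 and 6.93 with DHX9-837, against 6.73, 6.79 and 6.64 in controls. Its DHX9-1271 arrays spread over a wider range than its DHX9-837 arrays (log2 fold 0.33, SE 0.087, adjusted p = 0.0384). The Gpr183 call ended without any single control or DHX9-837 array or DHX9-1271 replicate 3. Ccr7, which directs lymphocytes to T cell areas, was not called (log2 fold 0.19, SE 0.13, adjusted p = 0.359) and its arrays overlapped.

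Both venule genes encode molecules that lymphocytes bind when they leave the blood. Glycam1, a mucin-like ligand of L-selectin on high endothelial venules, had 8.14, 8.87 and 8.35 in the DHX9-1271 arrays, 8.19, 8.18 and 8.14 in the DHX9-837 arrays and 7.46, 7.41 and 7.51 in the control arrays. The control arrays agreed closely, all hairpin arrays stood well above them and DHX9-1271 replicate 2 was the highest of all. Its rise of 1.81-fold was the largest of the 34 (log2 fold 0.85, SE 0.13, adjusted p = 0.00461). The call held in all 20 alternatives that tested the gene, not all of which could alter it. Madcam1, which binds the gut-homing integrin of lymphocytes, was not called (log2 fold 0.21, SE 0.084, adjusted p = 0.135). Its DHX9-1271 and control arrays overlapped, and it was called without control replicate 2.

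**Figure D2:**
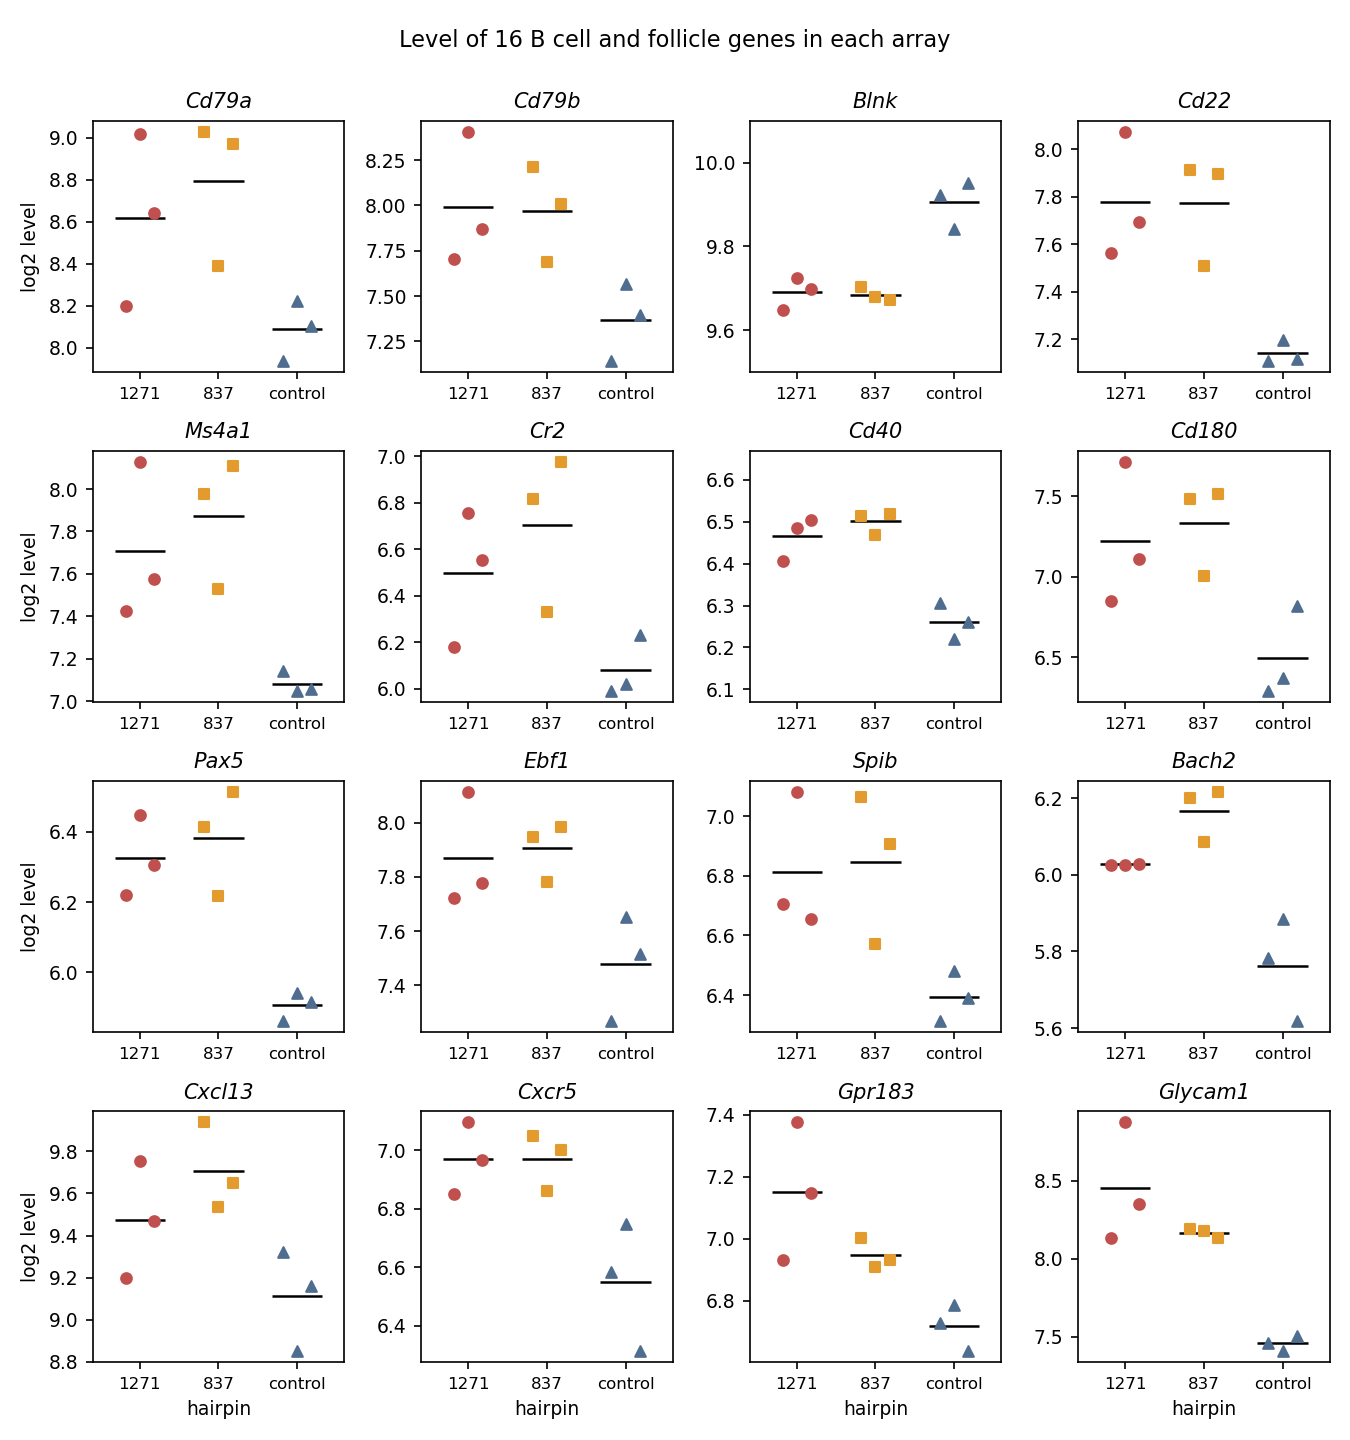
Log2 level (vertical axis, its own range in each panel) of 16 genes in the 9 arrays: circles DHX9-1271, squares DHX9-837, triangles control, with replicates 1 to 3 left to right and a bar at the group mean. The control mean is the lowest in all panels but Blnk, where it is the highest, and in Cd79a, Cr2 and Cxcl13 the lowest circle falls within the control range.

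Each hairpin was also set against control alone; the comparisons share the 3 control arrays, so their values are given side by side. With DHX9-1271, 5 of 34 rose (Glycam1, Cd22, Gpr183, Pax5 and Cd40) and Blnk fell, 14.7% and 2.94% against 2.83% higher and 1.58% lower of all genes tested. With DHX9-837, 9 of 34 rose (Cd180, Ms4a1, Glycam1, Cd22, Cxcl13, Pax5, Cxcr5, Bach2 and Cd40) and Blnk fell, 26.5% and 2.94% against 8.67% higher and 6.91% lower. The median log2 fold was 0.36 with DHX9-1271 and 0.34 with DHX9-837, beside 0.0057 and -0.0012 over all genes tested. All 3 DHX9-1271 arrays lay above the controls in 15 of 34, against 15.4% of all genes tested, and below in 1, against 10%. All 3 DHX9-837 arrays lay above in 20 of 34, against 17.1%, and below in 1, against 14.3%. The 5 rises with DHX9-1271 became 3 without control replicate 2 or DHX9-837 replicate 2, 2 without DHX9-1271 replicate 1 or DHX9-837 replicate 3, 1 without control replicate 1 or 3, DHX9-1271 replicate 2 or DHX9-837 replicate 1, and 0 without DHX9-1271 replicate 3, where 0 fell as well. With DHX9-1271 the fall of Blnk held without control replicate 2 alone. Over all genes tested, the share called higher with DHX9-1271 was below 2.83% in each fit that left out an array. It was 0.458% without DHX9-1271 replicate 3, 0.779% without DHX9-1271 replicate 2 and 2.56% without control replicate 2. The 9 rises with DHX9-837 became 15 without DHX9-1271 replicate 2, 5 without control replicate 1 and 4 without DHX9-837 replicate 1 or 3. The share of all genes called higher with DHX9-837 in those fits was 7.84%, 5.93%, 6.81% and 5.60%, in that order.

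Glycam1 passed with DHX9-1271 (log2 fold 1.00, adjusted p = 0.012) and with DHX9-837 (log2 fold 0.71, adjusted p = 0.0154), and the DHX9-1271 call ended without DHX9-1271 replicate 3. Pax5 passed with DHX9-1271 (log2 fold 0.42, adjusted p = 0.031) and with DHX9-837 (log2 fold 0.47, adjusted p = 0.00662), and only the DHX9-837 call held in each fit that left out an array. Cxcl13 passed with DHX9-837 (log2 fold 0.60, adjusted p = 0.0434) and did not with DHX9-1271 (log2 fold 0.36, adjusted p = 0.264), and its DHX9-837 call ended without control replicate 2 or 3, DHX9-1271 replicate 3, or any single DHX9-837 array (adjusted p 0.0301 to 0.13 over 21 alternatives). Gpr183 passed with DHX9-1271 (log2 fold 0.43, adjusted p = 0.0483) and not with DHX9-837 (log2 fold 0.23, adjusted p = 0.164), and the DHX9-1271 call ended without any single array except DHX9-1271 replicate 1 (adjusted p 0.027 to 0.15 over 20 alternatives). Set directly against each other, DHX9-837 and DHX9-1271 differed in 0 of the 34 genes (limma, adjusted p under 0.05). Of all genes tested, 0.696% were called higher and 1.21% lower by the same limit. At an unadjusted p under 0.05 the count was 1 of the 34. All DHX9-837 arrays lay above all DHX9-1271 arrays in 1 of the 34, Bach2, against 9.37% of all genes tested. They lay below them in 1, Cd83, against 12.6%. The difference in Cxcl13, DHX9-837 minus DHX9-1271, was 0.23 (95% interval -0.15 to 0.61, adjusted p = 0.603), that in Gpr183 -0.20 (95% interval -0.43 to 0.024, adjusted p = 0.414) and that in Glycam1 -0.29 (95% interval -0.64 to 0.062, adjusted p = 0.457). Cd83 was the gene at an unadjusted p under 0.05, at -0.31 (95% interval -0.56 to -0.055, adjusted p = 0.24). Cd22 differed by -0.0021 (95% interval -0.32 to 0.32). Intervals of this width do not show that the hairpins act alike.

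Within each hairpin group most of the 34 genes were high or low in the same arrays, and among the controls this was weaker. In DHX9-1271 replicate 2, 32 of the 34 lay above their own group's mean and 30 were at their highest of the 3 arrays, while in DHX9-1271 replicate 1, 3 lay above it and 29 were at their lowest. In DHX9-837 replicate 2, 4 lay above the group mean and 29 were at their lowest, against 31 above it in replicate 1 and 23 in replicate 3. Among the control arrays 13, 19 and 19 lay above. Control replicate 1 was the lowest of its group for 17 of the 34, against 37.8% of all genes tested. Control replicate 2 was the highest for 17, against 30.1%. Over all genes tested, 42.6% to 56.9% lay above their group's mean in each of the 9 arrays. The exceptions within DHX9-1271 replicate 2 were Cd40, Bach2 and Ccl19, highest in replicate 3, and Ccr7, highest in replicate 1. The median SD of the 34 genes was 0.22 with DHX9-1271 and 0.18 with DHX9-837, against 0.12 in controls, whereas over all genes tested it was 0.063 and 0.077, against 0.090.

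**Figure D3:**
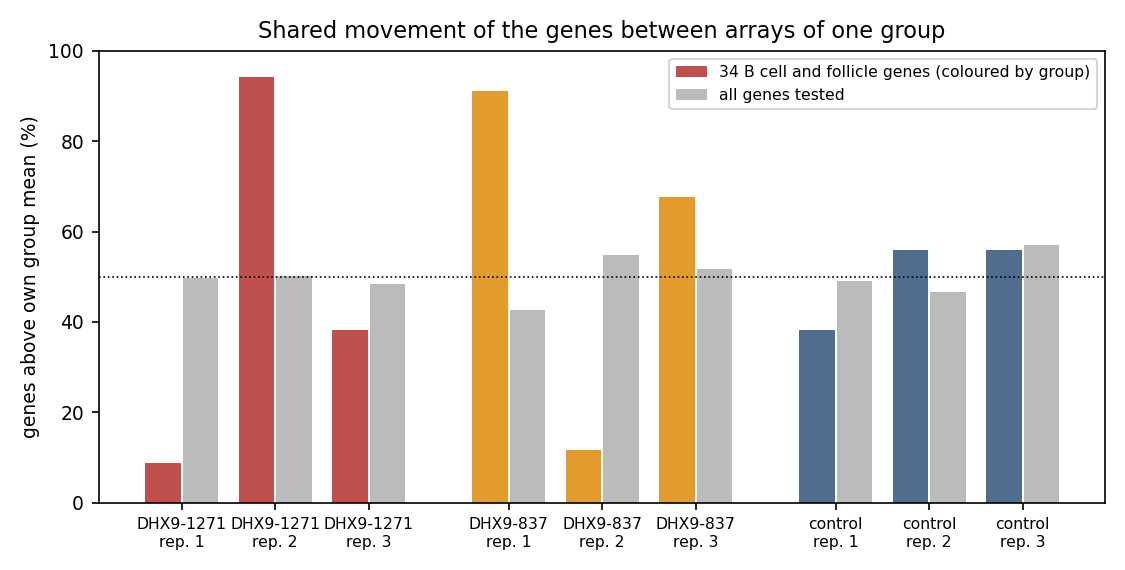
Share of genes (vertical axis, percent) whose level in an array lay above the mean of that array's own group, for the 34 B cell and follicle genes (coloured bars) and for all genes tested (grey bars); the dotted line marks 50%. The coloured bars run from 8.82% in DHX9-1271 replicate 1 to 94.1% in DHX9-1271 replicate 2, while the grey bars stay between 42.6% and 56.9%.

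Other genes of B cells and of the cells around them were read from lists of their own, in the pooled contrast, where 8.13% of all genes tested rose and 5.33% fell. Of 20 further B cell genes 3 rose (15%) and 0 fell, with a median log2 fold of 0.29: Cd24a (log2 fold 0.33, SE 0.064, adjusted p = 0.0104), Fcrl1 (log2 fold 0.39) and Ptpn6 (0.23), which encodes a phosphatase recruited by inhibitory receptors. Without control replicate 1 Fcrl1 and Ptpn6 were not called, nor Ptpn6 without control replicate 3. Which cells of the tissue gave these 3 signals was not tested. The IgM heavy chain gene Ighm had 9.55, 10.18 and 9.81 in the DHX9-1271 arrays, 10.12, 9.66 and 9.80 in the DHX9-837 arrays and 9.13, 9.26 and 9.13 in the control arrays, with all hairpin arrays above all controls (log2 fold 0.68, SE 0.14, adjusted p = 0.0139); the call ended without control replicate 1 or 3. Igha, the IgA heavy chain gene, had 12.22, 12.38 and 12.24 with DHX9-1271 and 12.58, 12.57 and 12.49 with DHX9-837, against 12.37, 12.31 and 12.34 in controls, and it was not called with both hairpins (log2 fold 0.076, adjusted p = 0.342) but was with DHX9-837 (log2 fold 0.21, adjusted p = 0.0365). Of these 2 genes, 2 were called higher with DHX9-837 alone and 0 with DHX9-1271 alone, against 8.67% and 2.83% of all genes tested. The probes behind their rows are not stated, so their single values are uncertain. Of 9 plasma cell genes 0 were called (2 at an unadjusted p under 0.05), with Xbp1, a secretory factor, at 0.12 (adjusted p = 0.0556), Prdm1 at -0.12 and Irf4 at 0.12. The plasma cell median was 0.082. With DHX9-837 alone 0 of the 9 were called. In 4 of them all DHX9-837 arrays lay above all controls, against 17.1% of all genes tested, and in 1 below, against 14.3%. Of 8 germinal centre genes 0 were called (1 at an unadjusted p under 0.05), the median log2 fold was -0.048 and 3 of the 8 folds were above 0. Those were Mybl1 at 0.38 (adjusted p = 0.13), Gcsam at 0.20 and Il21r at 0.099, and the lowest of the 8 was -0.12.

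Among 14 genes of lymphoid stroma and venules 2 rose (14.3%) and 1 fell (7.14%), against 8.13% higher and 5.33% lower of all genes tested, and the median log2 fold was 0.045 over the 15 with a value. Tnfsf13b, which encodes BAFF, the survival factor bound by the receptor of Tnfrsf13c, had 7.49, 7.15 and 7.11 in the DHX9-1271 arrays, 7.23, 7.15 and 7.35 in the DHX9-837 arrays and 7.65, 7.76 and 7.82 in the control arrays. Every hairpin array lay below every control array, and the fall passed in each fit that left out an array (log2 fold -0.50, SE 0.089, adjusted p = 0.00824), while Tnfrsf13c was not called. Mfge8, a product of follicular dendritic cells and of phagocytes, rose (log2 fold 0.43, SE 0.095, adjusted p = 0.0194), as did the TNF receptor gene Tnfrsf1a (log2 fold 0.15, adjusted p = 0.0405). The Mfge8 call ended without control replicate 2 or 3, and that of Tnfrsf1a without any array except control replicate 2. In the list of M cells and follicle-associated epithelium, Ccl9 (0.33) and Anxa5 (0.38) rose and Pglyrp1 (-0.22) fell of 8 tested, the last not without control replicate 1 or 3, DHX9-1271 replicate 1 or 3, or any single DHX9-837 array. The median log2 fold of that list was 0.041 over the 9 with a value. Anxa5 is expressed by many cell types.

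Markers of other cells moved unevenly, and their counts stand beside 8.13% higher and 5.33% lower of all genes tested. Of 15 T cell genes 1 (6.67%) rose, Cd4 (log2 fold 0.65, SE 0.11, adjusted p = 0.00633), and 0 fell, with Cd8a at -0.26 (adjusted p = 0.0642), Il7r at 0.32 and a list median of 0.008; Cd8a was called without DHX9-837 replicate 2. Of 8 MHC class II genes, which B cells and macrophages share, 1 (12.5%) rose, H2-DMb2 (log2 fold 0.79, adjusted p = 0.0363) with H2-Oa at 0.26 and Cd74 at 0.19, both not called, and a median of 0.18. Cd74 was called without DHX9-837 replicate 2. H2-DMb2 was not called without any single control array, DHX9-1271 replicate 3, or DHX9-837 replicate 1 or 3. With DHX9-837 alone 3 of the 8 rose (37.5%) and with DHX9-1271 alone 0 did, against 8.67% and 2.83% of all genes tested. Of 9 myeloid genes 4 (44.4%) rose, among them the receptor gene Csf1r (log2 fold 0.48, adjusted p = 0.000695) and the complement gene C1qc (0.50), and 1 (11.1%) fell, Cd14 (-0.43), with a median of 0.14. Of 3 genes of group 3 innate lymphoid cells that passed the filter, Id2 (0.47) and Il1r1 (0.34) rose and Kit (0.18) was not called; none of the 3 is restricted to those cells. Of 10 epithelial genes 2 (20%) rose: Krt18 (0.66) and Krt19 (0.24). Krt8 stood at 0.15 and 0 fell, and over the 10 genes the median log2 fold was 0.013 with 6 folds above 0; Krt19 was not called without control replicate 1, and Krt8 was without DHX9-837 replicate 1. Of 8 smooth muscle genes 0 were called, also at an unadjusted p under 0.05, with Des at -0.17, Cnn1 at -0.13, Lmod1 at 0.018 and a median of -0.018. That median was 0.05 with DHX9-1271 alone and -0.12 with DHX9-837 alone, with 0 called in each. Between hairpins, 0 of the 8 folds of DHX9-837 minus DHX9-1271 were above 0, and 0 were called. In 5 of the 8 all DHX9-837 arrays lay below all DHX9-1271 arrays, against 12.6% of all genes tested. Of 8 large intestine genes Slc26a3 fell (-0.45), with Muc2 at 0.11 and Aqp8 at -0.26, and Aqp8 was called without control replicate 2. Of 8 small intestine genes Alpi fell (-0.66), though not without control replicate 2, with Lct at -0.11 and Apoa4 at 0.13.

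Array by array, the mean log2 level of the 34 genes was 6.95 to 7.34 with DHX9-1271, 7.02 to 7.28 with DHX9-837 and 6.77 to 6.86 in controls, so that every hairpin array was above every control array. The T cell mean was 6.47 to 6.66 with DHX9-1271, 6.43 to 6.62 with DHX9-837 and 6.47 to 6.58 in controls, and the plasma cell mean was 7.36 to 7.55 with DHX9-1271, 7.49 to 7.57 with DHX9-837 and 7.42 to 7.51 in controls; both overlapped. The myeloid mean was 7.49 to 7.64 with DHX9-1271, 7.58 to 7.63 with DHX9-837 and 7.31 to 7.46 in controls and all hairpin arrays lay above all controls. The MHC class II mean was 8.93 to 9.11 with DHX9-1271, 8.87 to 9.15 with DHX9-837 and 8.77 to 8.88 in controls, with 1 hairpin array within the control range. The epithelial mean was 10.93 to 10.96 with DHX9-1271, 10.95 to 11.00 with DHX9-837 and 10.84 to 10.88 in controls, also with all hairpin arrays above all controls although the list's median log2 fold was 0.013, and that of smooth muscle was 10.83 to 10.96 with DHX9-1271, 10.58 to 10.78 with DHX9-837 and 10.76 to 10.92 in controls, with overlap. The epithelial log2 folds ran from -0.13 to 0.66 (Krt18), with 6 of 10 above 0. The epithelial mean without keratin genes was not tested. DHX9-1271 replicate 2 was the highest of its group in the T cell, plasma cell, MHC class II and myeloid means as well as in that of the 34 genes, and in the smooth muscle mean, and the lowest in the small intestine and epithelial means. DHX9-837 replicate 2 was the lowest of its group in the T cell, plasma cell, MHC class II and small intestine means as in that of the 34, and the highest in the epithelial and smooth muscle means. The part of these other cell types in the B cell values was not tested.

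**Figure D4:**
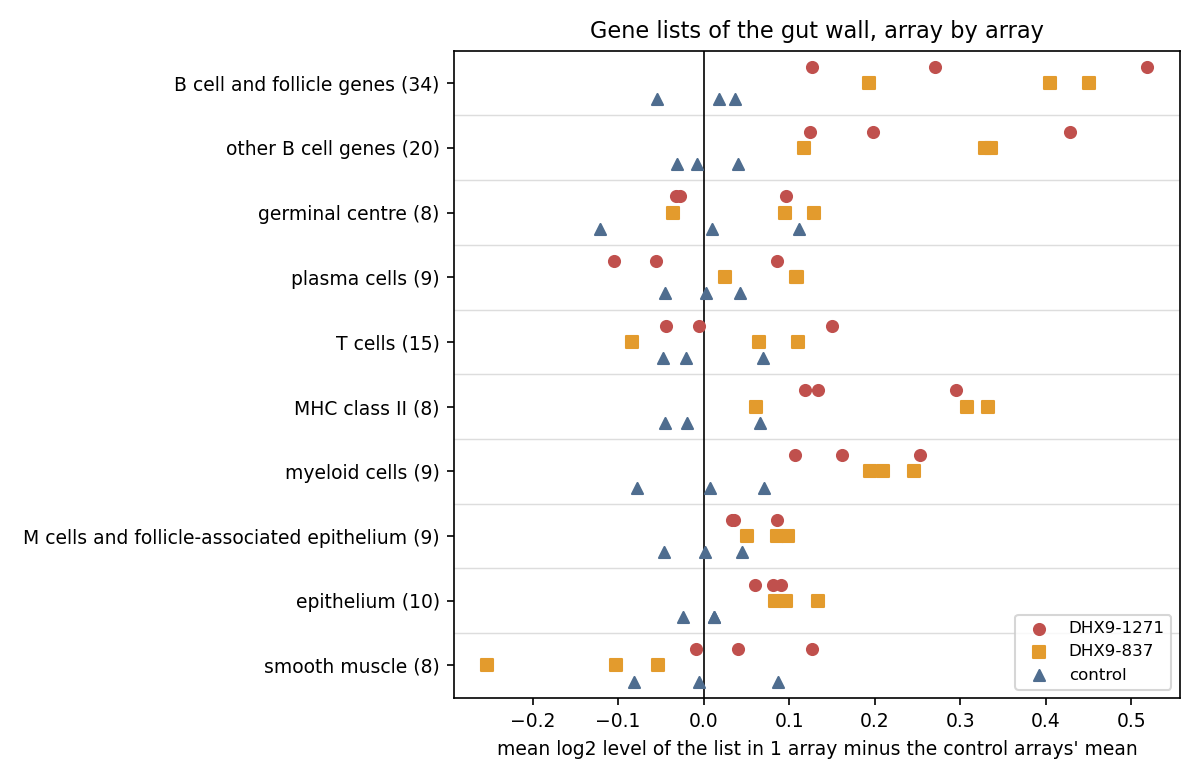
Mean log2 level of 10 gene lists (rows, number of genes in brackets) in each array minus the mean of the 3 control arrays: circles DHX9-1271, squares DHX9-837, triangles control. In the top row the hairpin arrays lie right of all controls and spread widely, while in the T cell, plasma cell and germinal centre rows the groups overlap.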

How the data were processed

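RNA of 9 samples (3 per group, assigned from their titles) was hybridised to Affymetrix Mouse Gene 2.0 ST arrays. The authors deposited log2 expression levels made by RMA in oligo 1.30.0 under R 3.1.1, per the submitters' processing notes; the deposited values, 1 row per Entrez Gene number, were used as given. RMA corrects background and gives arrays a common distribution, so a shift shared by most genes would not show. Neither the grouping of probes nor the genome build behind them is stated in the labels. Of 24973 rows, 24015 carried 1 gene symbol, 0 several and 958 none; 23922 were found in the RefSeq gene table, and of 4 symbols with more than 1 row the brightest row was kept. A filter on the mean log2 level at the 30th percentile (5.28) removed 7203 genes and kept 16808.

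A group-means model was fitted to all 9 arrays with limma 3.58.1 in R 4.3.3 (6 residual and 2.84 prior degrees of freedom), with Benjamini-Hochberg adjustment over all genes tested and calls at an adjusted p under 0.05. The script was tested on simulated data. Counts at an unadjusted p under 0.05 are given without a share over all genes and are not calls. "Both hairpins" is the mean of both hairpin group means. Among the genes tested 45.3% hold the same value in at least 2 arrays, as do 6 of the 34 (Blk, Bank1, Bcl11a, Bach2, Gpr183 and Glycam1).

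The 34 genes, their roles and the other gene lists (further B cell genes, germinal centre, lymphoid stroma and venules, plasma cells, immunoglobulin constant regions, T cells, MHC class II, myeloid cells, group 3 innate lymphoid cells, M cells and follicle-associated epithelium, epithelium, smooth muscle, large intestine and small intestine) were chosen with earlier results of these data known. Levels per array are given for the genes called in at least 1 contrast and for Cd79a, Ms4a1, Cr2 and Cxcl13. From each other list up to 3 tested genes of smallest p in the pooled contrast are named, besides Dhx9, Ighm and Igha. Car1, Hoxd13 and Sis lie outside that rule and were chosen after their values were seen. Promoter windows came from RefSeq. Results were recomputed under 21 alternatives; those of genes outside the 34 were added after seeing the data. Python 3.11.15 with matplotlib 3.10.9 drew the figures.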

Additional observations from a re-analysis of the deposited data

How the results depend on the processing

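Of the 21 alternatives, 9 left out 1 array each, and no called fold changed sign in any. Not every alternative could alter a call. Averaging the rows of a gene changed no count, as each of the 34 has 1 row. The fit with the compared groups alone left the pooled contrast, which uses all 3 groups, as it was. With both hairpins, the 12 rises became 7 with no level filter, 6 with array weights and 5 to 14 when 1 array was left out. Under a 1.5-fold limit, a cut on the fold itself, they became 5 and the 1 fall became 0. Cd22 and Glycam1 were called in every alternative that tested them. Blnk, Cd40, Pax5 and Bach2 were called in all that tested them but the 1.5-fold limit. Beside the 8.13% of all genes called higher with both hairpins, the share was 4.04% with no level filter and 6.24% with array weights. It was 0.869% under the 1.5-fold limit and 4.65% to 6.91% without 1 array. With DHX9-837, the 9 rises became 5 with array weights, 5 under the 1.5-fold limit (0 falls) and 4 to 15 without 1 array, and the median log2 fold ran from 0.30 to 0.45 without 1 array (0.45 without DHX9-837 replicate 2). Beside 8.67% of all genes called higher with DHX9-837, the share was 7.06% with array weights and 1.43% under the 1.5-fold limit. With DHX9-1271, the 5 rises became 1 with no level filter, 3 with array weights, 3 without tied genes, 2 with the compared groups alone, 2 under the 1.5-fold limit and 0 to 3 without 1 array, and the 1 fall became 0 with no level filter, with arrays centred on their medians, with the compared groups alone, under the 1.5-fold limit and without any 1 array other than control replicate 2 (0 to 1). Without tied genes, Gpr183 and Glycam1 were not tested, and the remaining Cd22, Pax5 and Cd40 stayed called. Beside 2.83% of all genes called higher with DHX9-1271, the share was 1.06% with no level filter and 3.06% with array weights. It was 4.93% without tied genes, 1.23% with the compared groups alone and 0.428% under the 1.5-fold limit. DHX9-837 and DHX9-1271 differed in 0 of the 34 in all 21 alternatives. The deviations of same-numbered arrays correlated at -0.37 to 0.26, so the numbers were not taken as pairs; with the replicate block, 8 rose and 1 fell with both hairpins, 6 and 1 with DHX9-837, and 1 and 0 with DHX9-1271. Of all genes tested, 7.01%, 7.63% and 1.57% were called higher with the block, in the same order. Beyond the tied genes that went untested, the cause of these changes was not tested. With 3 arrays per group, the number of arrays limits the precision.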
